A study of Mus musculus with 2669 samples.

Results

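The cells described here are neurons of the medial ganglionic eminence (MGE) that carried transcripts of the LIM-homeodomain gene Lhx8. They were taken from a table of 2669 single mouse cells, of which 1813 came from the MGE and 1796 of those had at least 1000 detected genes and 50000 read counts. A cell counted as a neuron when Tubb3, the neuronal beta-tubulin, and Dcx, a microtubule protein of young migrating neurons, each reached 50 CPM (read counts scaled so that each cell has the same total) and the proliferation genes Top2a and Mki67 each stayed below 10 CPM. This left 193 MGE neurons. The cells were chosen by their measured levels of these 5 genes: an Lhx8 level of at least 20 CPM defined 50 of the 193 as Lhx8-positive (25.9%, exact 95% binomial interval 19.9% to 32.7%), and the remaining 143 are called the other MGE neurons.

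All cells came from CD1 mouse embryos. The study dissected the ventral MGE (vMGE), the dorsal MGE (dMGE) and the caudal ganglionic eminence (CGE) at embryonic ages E14.5 and E12.5, with no gene altered and no agent given per the labels. Cells were captured on Fluidigm C1 microfluidic chips for small cells, and polyadenylated RNA was amplified in full length by Smart-seq v4 and sequenced as single-end reads. The 4 MGE groups were vMGE E14.5 (5 chips), dMGE E14.5 (8 chips), vMGE E12.5 (7 chips) and dMGE E12.5 (6 chips), and the labels tie no chip to an animal or litter, so the chip is the replicate and p-values measure only the spread between chips, which may be technical.

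The MGE is a source of GABAergic neurons that stay in the ventral forebrain or migrate to the cortex and striatum. In mice, the homeodomain protein Nkx2-1 specifies the region and activates the LIM-homeodomain genes Lhx6 and Lhx8 in the cells leaving it. Lhx6 is required for cortical interneurons of the parvalbumin and somatostatin classes, whereas Lhx8 is required for the cholinergic neurons of the basal forebrain and shares functions with Lhx6 in pallidal development.

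The 50 Lhx8-positive neurons comprised 20 of 52 neurons in vMGE at E14.5, 9 of 80 in dMGE at E14.5, 13 of 22 in vMGE at E12.5 and 8 of 39 in dMGE at E12.5. They lay on 16 of the 26 MGE chips, and 14 chips held Lhx8-positive and other neurons together. Only 4 chips held at least 5 of them, which limits every comparison across chips below. Their total counts ran from 125586 to 2086840 per cell with a median of 759376, against 68210 to 2468300 with a median of 631460 in the other MGE neurons. They had a median of 2847.5 detected genes, against 2497 in the others. The counts are reads without molecular identifiers, so the intervals given here cover counting error only.

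Because Lhx8 and the neuronal genes chose the cells, their levels are a description and carry no test. Lhx8 ran from 21.3 to 2050 CPM in the 50 cells, with a median of 262 CPM. In reads, this was a lowest value of 10, a median of 151.5 and a highest value of 2183 counts. There were 8 cells between 20 and 50 CPM, 6 between 50 and 100, 12 between 100 and 300, 20 between 300 and 1000 and 4 at 1000 CPM or above. Most of the cells, 36 of 50, thus held at least 100 CPM. The group medians were 316 CPM in vMGE E14.5, 169 CPM in dMGE E14.5, 306 CPM in vMGE E12.5 and 253 CPM in dMGE E12.5. The 5 cells just inside the threshold held 21.3, 21.6, 25.7, 34.0 and 37.0 CPM, and the 5 just outside held 14.3, 9.54, 8.25, 5.66 and 3.76 CPM. Among the other MGE neurons, 22 had some Lhx8 counts below the threshold and 121 had none. Tubb3 had a median of 840 CPM (65.2 to 22789) and Dcx a median of 1404 CPM (87.4 to 17295) in the Lhx8-positive neurons.

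**Figure D1:**
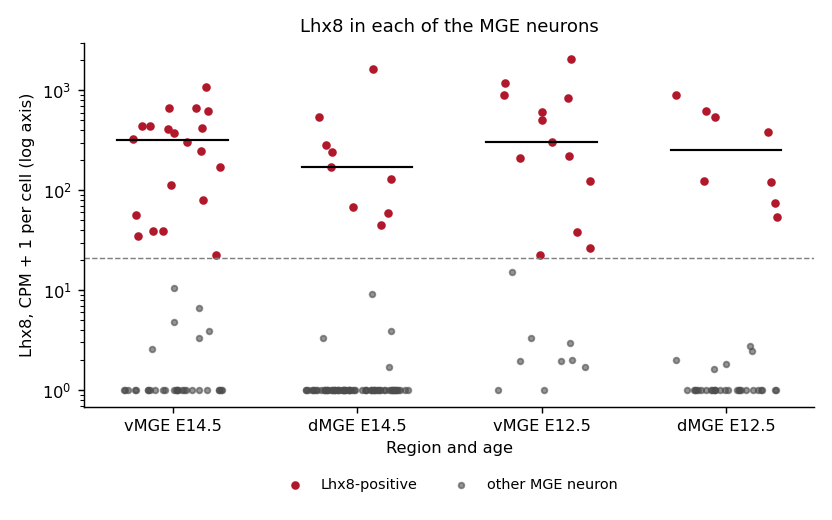
Lhx8 level per MGE neuron in CPM on a log axis (CPM + 1), by group, with the selection threshold of 20 CPM as a dashed line and the median of the Lhx8-positive neurons as a short line. Lhx8-positive neurons run from 21.3 to 2050 CPM, and 121 of the 143 other neurons have no Lhx8 count.

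The same rule applied to the CGE gave the level in a neighbouring eminence. It was met by 2 of 156 CGE neurons (1.28%, exact 95% interval 0.156% to 4.55%), at 144 and 167 CPM. The median depth was 662114 counts in MGE neurons and 954563 counts in CGE neurons, and the part of depth in these shares was not tested.

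Lhx8-positive cells made up a larger part of the vMGE neurons than of the dMGE neurons at both ages when cells were pooled. They were 33 of 74 vMGE neurons (44.6%, exact 95% interval 33.0% to 56.6%), against 17 of 119 dMGE neurons (14.3%, 8.55% to 21.9%). This follows the higher Lhx8 level in vMGE neurons already known from these cells and is not independent evidence of it. The tests over chips below compare regions and ages, which the choice of cells did not use, and carry the same limit. By group the shares were 38.5% in vMGE E14.5 (25.3% to 53.0%), 11.2% in dMGE E14.5 (5.28% to 20.3%), 59.1% in vMGE E12.5 (36.4% to 79.3%) and 20.5% in dMGE E12.5 (9.30% to 36.5%).

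Chip by chip, the vMGE E14.5 chips numbered 91, 93, 96, 98 and 194 held 4 of 10, 8 of 17, 2 of 7, 1 of 10 and 5 of 8 neurons that were Lhx8-positive. In dMGE at E14.5, chip 193 held 6 of 22, chip 92 held 1 of 20, chip 97 held 1 of 7 and chip 101 held 1 of 4, while chips 90, 99, 191 and 192 held 0 of 6, 16, 2 and 3 neurons. The 2 sets of E14.5 chips overlapped, since chip 98 of vMGE, at 10.0%, lay below chip 193 of dMGE, at 27.3%. In vMGE at E12.5, chips 185, 174, 196 and 177 held 7 of 12, 3 of 6, 2 of 2 and 1 of 1, and chip 180 held 0 of 1. In dMGE at E12.5, chips 173, 176 and 184 held 2 of 17, 3 of 9 and 3 of 7, and chips 181 and 195 held 0 of 3 each. Chip 193 thus supplied 6 of the 9 Lhx8-positive neurons of dMGE E14.5.

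**Figure D2:**
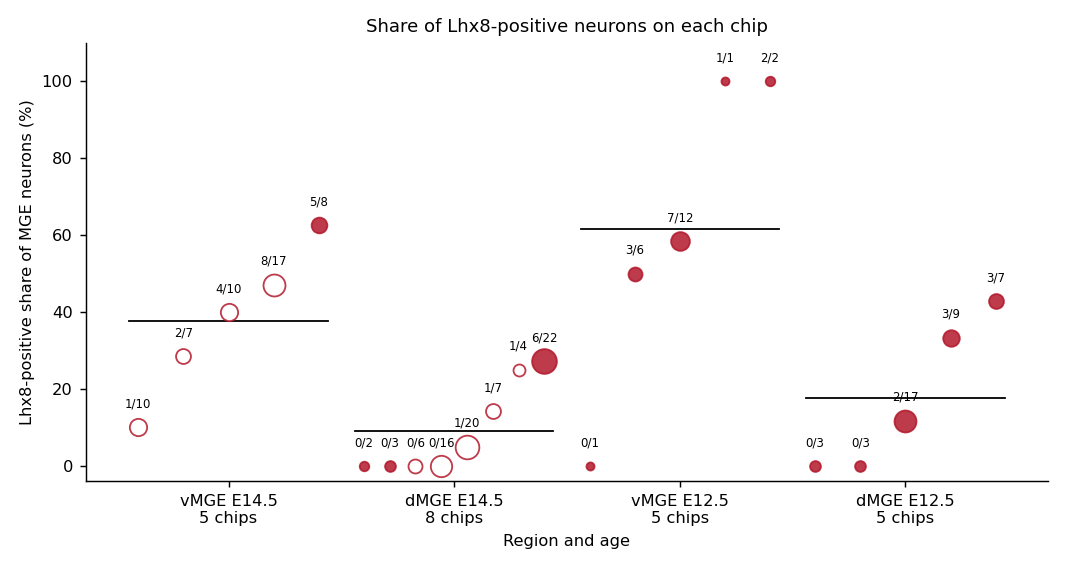
Share of Lhx8-positive cells among the MGE neurons of each chip, in percent, by group. Each point is a chip labelled with positive over all neurons, its area grows with the number of neurons, filled points are chips numbered 160 and above, open points lower numbers, and lines are means over chips; the 5 vMGE E14.5 chips lie between 10.0% and 62.5% and the 8 dMGE E14.5 chips between 0% and 27.3%.

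With chips of at least 10 neurons, the share averaged 32.4% ± 19.7 in vMGE E14.5 and 10.8% ± 14.52 in dMGE E14.5 (SD, n = 3 chips each). The difference of 21.6 percentage points gave an two-sided exact permutation p of 0.2 (0.6 adjusted over 3 tests, smallest possible p 0.1). On all chips with at least 1 neuron, a choice made after seeing the data, the averages were 37.6% ± 19.7 in vMGE (n = 5) and 8.94% ± 11.7 in dMGE (n = 8), and the exact permutation p was 0.00777 (adjusted 0.0311 over 4 tests). Chips numbered below 160 alone gave a difference of 22.6 points with 4 vMGE chips against 5 dMGE chips (exact permutation p = 0.0556), and chips numbered 160 and above gave 53.4 points with 1 against 3 (exact permutation p = 0.25, the smallest possible).

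At E12.5 only 1 chip per region had 10 neurons, at 58.3% in vMGE and 11.8% in dMGE, and no test was possible there. With at least 1 neuron per chip the averages were 61.7% ± 41.5 in vMGE and 17.6% ± 19.6 in dMGE (SD, n = 5 chips each), a difference of 44.1 points (exact permutation p = 0.0714, adjusted 0.143).

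Between the ages no difference in share passed the test on chips with at least 10 neurons. The share was lower by 26.0 points at E14.5 than at E12.5 in vMGE (exact permutation p = 0.5 with 3 chips against 1, smallest possible 0.25) and lower by 1.01 points in dMGE (exact permutation p = 1, 3 chips against 1). All E12.5 chips are numbered 160 and above while 9 of the 13 E14.5 chips have lower numbers, so age and chip series overlap. On chips numbered 160 and above with at least 1 neuron, the vMGE difference was +0.833 points with 1 chip against 5. The dMGE difference on such chips was -8.50 points with 3 against 5.

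Nkx2-1 and Lhx6, the main identity genes of the lineage, were present in most Lhx8-positive neurons. A gene is called detected here at 20 CPM or more. Lhx6 was detected in 38 of 50 Lhx8-positive neurons (76.0%, exact 95% interval 61.8% to 86.9%), against 93 of 143 other MGE neurons (65.0%, 56.6% to 72.8%). Nkx2-1 was detected in 27 of 50 (54.0%, 39.3% to 68.2%), against 51 of 143 (35.7%, 27.8% to 44.1%). Within chips, the Nkx2-1 share was higher in the Lhx8-positive neurons on 9 of 14 chips and lower on 3, and the Lhx6 share was higher on 8 and lower on 4. The intervals of each pair overlapped. By group, Nkx2-1 was detected in 11 of 20, 4 of 9, 7 of 13 and 5 of 8 Lhx8-positive neurons of vMGE E14.5, dMGE E14.5, vMGE E12.5 and dMGE E12.5, against 11 of 32, 13 of 71, 7 of 9 and 20 of 31 others. Its share was thus higher in the Lhx8-positive neurons of both E14.5 groups and lower in those of both E12.5 groups, and 71 of the 143 others came from dMGE E14.5, the group with the lowest share.

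Counted together, 23 of 50 Lhx8-positive neurons held both Lhx6 and Nkx2-1, 15 held Lhx6 alone, 4 held Nkx2-1 alone and 8 held neither. The same patterns were found in 34, 59, 17 and 33 of the 143 other MGE neurons. Cells with both genes were thus 46.0% of the Lhx8-positive neurons (31.8% to 60.7%), against 23.8% of the others (17.1% to 31.6%). By group, 9 of 20, 4 of 9, 6 of 13 and 4 of 8 Lhx8-positive neurons held both genes in vMGE E14.5, dMGE E14.5, vMGE E12.5 and dMGE E12.5. The other neurons held both in 7 of 32, 11 of 71, 5 of 9 and 11 of 31 cells in the same order of groups, so vMGE E12.5 did not share the direction of the remaining groups.

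**Figure D3:**
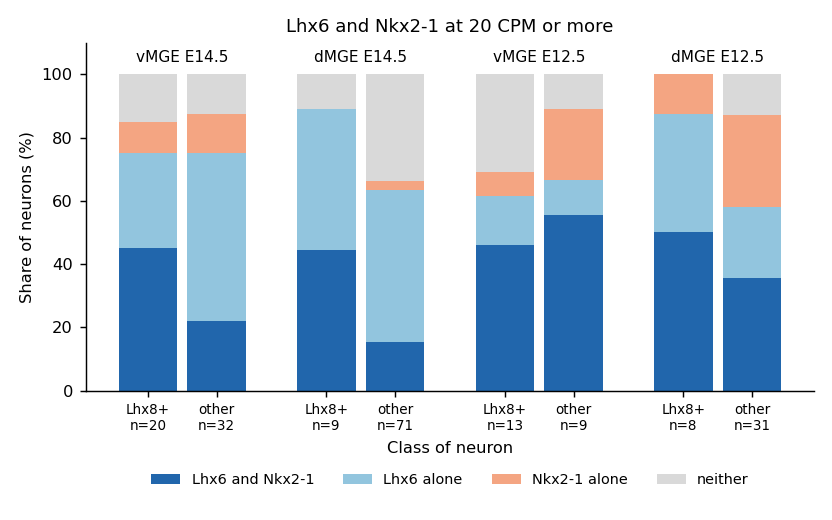
Percent of neurons with Lhx6 and Nkx2-1 together, Lhx6 alone, Nkx2-1 alone or neither, each at 20 CPM or more, with the Lhx8-positive neurons left of the other neurons in each group. Cells with both genes are 23 of 50 Lhx8-positive neurons and 34 of 143 other neurons over all groups.

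The 38 cells with Lhx6 had a median Lhx8 level of 292 CPM, and the 12 cells without it had 214 CPM. Of the 4 cells with at least 1000 CPM of Lhx8, the highest, at 2050 CPM on vMGE E12.5 chip 185, had 2.82 CPM of Lhx6 and no Nkx2-1. The next, at 1643 CPM on dMGE E14.5 chip 97, had 2520 CPM of Lhx6 and 1728 CPM of Nkx2-1. The remaining cells of the 4 held 1196 CPM of Lhx8 with no Lhx6 on chip 185, and 1076 CPM with 8.43 CPM of Lhx6 on vMGE E14.5 chip 194. Lhx6 was thus below 20 CPM in 3 of the 4 cells with the most Lhx8, against 12 of all 50. Dlx2, a homeobox gene of subpallial progenitors and young GABAergic neurons, was detected in 28 of 38 cells with Lhx6 and in 4 of 12 without it. This split rests on a few cells, and median genes per cell were 2992.5 with Lhx6 and 2505 without it.

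Genes of GABA synthesis were present in most Lhx8-positive neurons. Gad1 or Gad2, the enzymes that make GABA, was detected in 44 of 50, against 117 of 143 other MGE neurons. Gad1 alone reached 36 of 50 (72.0%), against 85 of 143 (59.4%), and Gad2 reached 38 of 50 (76.0%), against 110 of 143 (76.9%). The homeobox genes Dlx1 and Dlx5, which drive GABAergic differentiation, were found in 44 and 39 of 50 Lhx8-positive neurons, against 118 and 90 of 143 others. Abat, the enzyme that breaks GABA down, was detected in 23 of 50, against 40 of 143, with the share higher on 10 of 14 chips and lower on 4.

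Markers of mature cholinergic neurons were not detected. Chat, which makes acetylcholine, Slc5a7, the high-affinity choline transporter, Ngfr, a receptor for nerve growth factor, and Ache, which degrades acetylcholine, had no count in any of the 50 Lhx8-positive neurons. A count of 0 of 50 cells allows a share of up to 6%. The other 143 neurons had these 4 genes at 20 CPM in 0 cells as well, which allows up to 2.10%. Gbx1 and Gbx2, homeobox genes of ventral telencephalic neurons, each reached 20 CPM in 1 of 50, against 0 of 143. Isl1, a LIM-homeodomain gene of striatal and cholinergic neurons, was detected in 6 of 50 (exact 95% interval 4.53% to 24.3%), against 14 of 143 (9.79%, 5.46% to 15.9%). Of those 6 cells, 4 were among the 8 from dMGE E12.5, and 0 were among the 20 from vMGE E14.5.

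Zic1 and Tshz1 marked a small part of the Lhx8-positive neurons. Zic1, a zinc-finger gene of the septum and ventral forebrain, was detected in 7 of 50 (14%, exact 95% interval 5.82% to 26.7%), against 2 of 143 (1.40%, 0.170% to 4.96%). Tshz1, a teashirt-family zinc-finger gene, was detected in 10 of 50 (10.0% to 33.7%), against 14 of 143 (9.79%, 5.46% to 15.9%). The Zic1 intervals did not overlap, the Tshz1 intervals did. The 2 genes met in 4 of the Lhx8-positive neurons, 57.1% of the Zic1 cells and 40.0% of the Tshz1 cells, and in 0 of 143 others. Of the 7 Zic1 cells, 3 came from chip 185 and 2 from chip 194, with 1 each from chips 174 and 184, so 4 of the 16 chips held them all, each numbered 160 or above. Zic1 was found in 2 of 20, 0 of 9, 4 of 13 and 1 of 8 Lhx8-positive neurons in vMGE E14.5, dMGE E14.5, vMGE E12.5 and dMGE E12.5, against 2 of 32, 0 of 71, 0 of 9 and 0 of 31 others. Tshz1 was found in 6 of 20, 0 of 9, 3 of 13 and 1 of 8, against 3 of 32, 8 of 71, 1 of 9 and 2 of 31, so dMGE E14.5 went against the other groups. Lhx6 accompanied Zic1 in 6 of the 7 cells and Tshz1 in 9 of the 10. After each cell was thinned to 50000 counts, Zic1 had at least 1 count in 7 Lhx8-positive and 3 other neurons, and Tshz1 in 11 and 17.

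**Figure D4:**
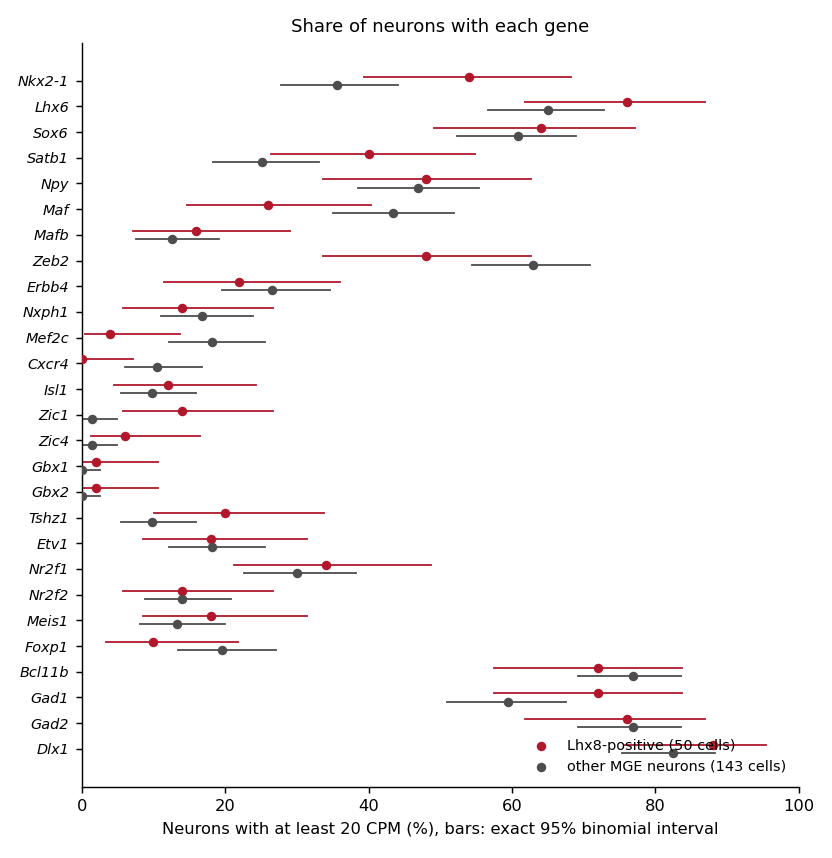
Percent of cells with 27 genes at 20 CPM or more in the Lhx8-positive (n = 50) and other (n = 143) MGE neurons, with exact 95% binomial intervals that cover counting error only. The pair of intervals of Zic1 (14% and 1.40%) does not overlap.

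Several genes of migrating cortical interneurons had a lower share in the Lhx8-positive neurons. Cxcr4, the chemokine receptor that guides tangential migration, reached 20 CPM in 0 of 50, which allows up to 6%, against 15 of 143 (10.5%, 5.99% to 16.7%). Its share was lower on 8 of 14 chips and higher on 0. With 0 of 50 cells no chip could show a higher share, so this tally adds nothing to the count. Mef2c, a transcription factor of maturing parvalbumin interneurons, was detected in 2 of 50 (4%, 0.488% to 13.7%), against 26 of 143 (18.2%, 12.2% to 25.5%), with the share lower on 9 chips and higher on 1. Maf, a transcription factor of MGE-derived cortical interneurons, was detected in 13 of 50 (26.0%, 14.6% to 40.3%), against 62 of 143 (43.4%, 35.1% to 51.9%). Zeb2, which directs MGE cells to a cortical fate in mice, was detected in 24 of 50 (48.0%, 33.7% to 62.6%), against 90 of 143 (62.9%, 54.5% to 70.9%), lower on 9 chips and higher on 4. The intervals overlap for all 4 genes. Groups follow in the order vMGE E14.5, dMGE E14.5, vMGE E12.5 and dMGE E12.5. Cxcr4 was found in 4 of 32, 9 of 71, 0 of 9 and 2 of 31 other neurons. Mef2c was found in 0 of 20, 2 of 9, 0 of 13 and 0 of 8, against 4 of 32, 17 of 71, 1 of 9 and 4 of 31. Its shares in dMGE E14.5 were thus close (22.2% and 23.9%). Maf was found in 6 of 20, 3 of 9, 2 of 13 and 2 of 8, against 14 of 32, 29 of 71, 4 of 9 and 15 of 31. Thinned to 50000 counts, the cells with at least 1 count were 0 and 17 for Cxcr4, 2 and 28 for Mef2c, 15 and 65 for Maf and 25 and 93 for Zeb2, in Lhx8-positive and other neurons.

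Other members of the interneuron list had overlapping intervals as well. Sox6, a transcription factor downstream of Lhx6, was detected in 32 of 50 (64%), against 87 of 143 (60.8%). Npy, a neuropeptide of a class of MGE-derived interneurons, was detected in 24 of 50 (48.0%), against 67 of 143 (46.9%). Satb1, a chromatin organiser needed for somatostatin interneurons, was detected in 20 of 50 (40.0%), against 36 of 143 (25.2%). Sst itself was detected in 1 of 50, against 5 of 143. The neuregulin receptor Erbb4 was found in 11 of 50, against 38 of 143.

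Over the 339 listed genes other than the selection genes, the intervals of Zic1 and of Rfc2, a subunit of the clamp loader of DNA replication, stood apart, and both were higher in the Lhx8-positive neurons. Rfc2 was detected in 18 of 50 (36%, 22.9% to 50.8%), against 22 of 143 (15.4%, 9.90% to 22.4%). No listed gene had separate intervals with the lower share in the Lhx8-positive neurons, and with this many genes some separate pairs can arise by counting error.

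The members also differed among themselves by group. Zeb2 was detected in 12 of 20, 5 of 9, 7 of 13 and 0 of 8 Lhx8-positive neurons of vMGE E14.5, dMGE E14.5, vMGE E12.5 and dMGE E12.5, against 24 of 32, 47 of 71, 3 of 9 and 16 of 31 other neurons. Npy was detected in 11 of 20, 6 of 9, 6 of 13 and 1 of 8 Lhx8-positive neurons of these groups, against 14 of 32, 35 of 71, 3 of 9 and 15 of 31 others. Neither gene was frequent in the 8 Lhx8-positive neurons of dMGE E12.5. Sox6 was detected in 17 of 20, 4 of 9, 6 of 13 and 5 of 8, against 24 of 32, 39 of 71, 5 of 9 and 19 of 31. No test was made of these shares, since each group had few chips and few cells.

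A few guidance and receptor genes, picked after their values were seen, had lower shares on most chips. Epha5, an ephrin receptor, was detected in 16 of 50, against 63 of 143, and was lower on 11 of 14 chips. Plxna4, a semaphorin receptor, was detected in 7 of 50, against 39 of 143, and was lower on 9. Grin2b, an NMDA receptor subunit, was detected in 1 of 50, against 16 of 143, and was lower on 8. The intervals of each pair overlapped.

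Among the genes of neuronal maturation, a pair of synaptic genes differed in direction across chips. Vamp2, a protein of synaptic vesicles, was detected in 5 of 50 (3.33% to 21.8%), against 30 of 143 (14.6% to 28.6%), lower on 9 of 14 chips and higher on 0. Snap25, its partner in the plasma membrane, was detected in 15 of 50 (30.0%), against 38 of 143 (26.6%), and its share was higher on 11 chips and lower on 2. Gap43, a growth cone protein, was detected in 19 of 50 (38.0%, 24.7% to 52.8%), against 28 of 143 (19.6%, 13.4% to 27.0%). At E12.5 it was found in 7 of 13 and 5 of 8 Lhx8-positive neurons of vMGE and dMGE, against 3 of 9 and 8 of 31 others. At E14.5 it was found in 2 of 20 in vMGE and in 5 of 9 in dMGE, against 5 of 32 and 12 of 71 others. The vMGE E14.5 group thus went against the other groups, and the 5 cells of dMGE E14.5 lay on 1 of 4 chips. Stmn2, a tubulin-binding protein of growing axons, was detected in 40 of 50, against 96 of 143.

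Transcripts of the cell cycle other than the 2 used for selection remained. The cyclin Ccnd2 was detected in 36 of 50 (72.0%, 57.5% to 83.8%), against 71 of 143 (49.7%, 41.2% to 58.1%), with the share higher on 10 of 14 chips and lower on 2. Cdk1, the mitotic kinase, was detected in 13 of 50 (26.0%, 14.6% to 40.3%), against 13 of 143 (9.09%, 4.93% to 15.0%). By group it was found in 5 of 20, 1 of 9, 2 of 13 and 5 of 8 Lhx8-positive neurons of vMGE E14.5, dMGE E14.5, vMGE E12.5 and dMGE E12.5. The other neurons had it in 3 of 32, 4 of 71, 2 of 9 and 4 of 31, so vMGE E12.5 went against the remaining groups. After thinning, the cells with at least 1 count were 35 and 80 for Ccnd2 and 12 and 20 for Cdk1, out of 50 and 143. At least 1 of the S-phase genes of a fixed list reached 20 CPM in 46 of 50, against 113 of 143. The cell-cycle lists did not move as a whole. In the within-chip fit on 3 chips described below, 8 of 14 G2/M genes had a positive log2 fold change (median +0.03). Against neurons with Lhx6 but not Lhx8, on 2 chips, 5 of 15 G2/M genes (median -1.04) and 6 of 14 S-phase genes (median -0.28) were positive. No gene of these lists was called.

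Nr2f1, a nuclear receptor graded along the forebrain, had higher shares at E12.5 than at E14.5 in both classes. It was detected in 2 of 20, 2 of 9, 6 of 13 and 7 of 8 Lhx8-positive neurons of vMGE E14.5, dMGE E14.5, vMGE E12.5 and dMGE E12.5. The other neurons had it in 2 of 32, 13 of 71, 5 of 9 and 23 of 31. Nr2f2 and Sp8, genes of the caudal eminence, were detected in 7 and 5 of 50, against 20 and 12 of 143. Bcl11b, a zinc-finger gene of striatal projection neurons and interneurons, was detected in 36 of 50, against 110 of 143, and Foxp1, a striatal forkhead gene, in 5 of 50, against 28 of 143.

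Levels were then compared within chips by summing counts over the cells of a class on each chip and fitting edgeR's quasi-likelihood test with the chip as a block. Only 3 chips held at least 5 cells of each class: vMGE E12.5 chip 185 (7 Lhx8-positive and 5 other neurons), dMGE E14.5 chip 193 (6 and 16) and vMGE E14.5 chip 93 (8 and 9). Of 6657 genes tested, 0 passed a Benjamini-Hochberg adjusted p under 0.05 (0%), and 110 (1.65%) had an unadjusted p under 0.05. DESeq2's Wald test on the same sums called 423 (6.35%). On the 8 chips with at least 3 cells of each class edgeR called 0 of 5095, and on the 14 chips with at least 1 cell of each it called 0 of 4599. With this many chips and cells, no expression difference between Lhx8-positive and other neurons was established beyond the selection genes.

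Lhx6 had 273, 429 and 395 CPM in the summed Lhx8-positive neurons of chips 185, 193 and 93, against 356, 609 and 2172 CPM in the other neurons of the same chips. It was lower in the Lhx8-positive sum on each of the 3 chips, by unequal amounts. The means were 366 ± 81.7 and 1045 ± 984 CPM (SD, n = 3 chips), and edgeR's log2 fold change was -1.19 with a standard error of 0.66 (adjusted p = 0.9998). On 8 chips the log2 fold change was +0.62, so the direction was not stable.

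Nkx2-1 had 84.0, 50.6 and 211 CPM in the Lhx8-positive neurons of these chips, against 242, 52.4 and 144 CPM in the others. Their order differed between chips, and edgeR gave a log2 fold change of -0.42 ± 1.67 (SE, adjusted p = 0.9998). Zeb2 had 20.8, 108 and 119 CPM, against 13.1, 428 and 1185 CPM, and was lower on 2 of 3 chips (log2 fold change -1.69 ± 1.12 SE, adjusted p = 0.9998 by edgeR). Cxcr4 had no count in the Lhx8-positive sums of the 3 chips, against 2.50, 3.23 and 74.2 CPM. Mef2c had 0, 21.1 and 0 CPM, against 14.4, 58.1 and 79.5 CPM, lower on all 3. Mef2c was not called by edgeR (adjusted p = 0.9998) and was called by DESeq2 (adjusted p = 0.0199).

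The remaining lineage genes varied as much between chips as between classes. Sox6 averaged 347 ± 320 CPM in the Lhx8-positive sums and 309 ± 112 CPM in the others (SD, n = 3 chips), and Npy averaged 509 ± 396 and 370 ± 225 CPM. The log2 fold change of Sox6 by edgeR was -0.29, opposite to its means, and changed sign in 7 of 20 planned settings. Maf averaged 62.1 ± 67.6 CPM, against 296 ± 479 CPM, where the second mean rests on chip 93 with 849 CPM. Nxph1, a secreted neurexin ligand, averaged 288 ± 283 CPM, against 548 ± 182 CPM. Satb1 averaged 80.1 ± 19.8 CPM, against 144 ± 165 CPM, but its log2 fold change by edgeR was +0.42 and changed sign in 5 of 20 planned settings. None of these was called by edgeR in this fit. At an Lhx8 threshold of 100 CPM, on chips 185 and 93, edgeR called Nxph1 lower (log2 fold change -12.0, adjusted p = 0.0108). Its log2 fold change at 20 CPM was -1.95, and its sign changed in 0 of 20 planned settings.

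Among the ventral and striatal genes, Isl1 averaged 23.8 ± 32.7 CPM in the Lhx8-positive sums, against 304 ± 527 CPM in the others. Its log2 fold change by edgeR was +0.34, opposite to these means, and changed sign in 6 of 16 planned settings. Tshz1 averaged 192 ± 212 CPM, against 23.3 ± 31.4 CPM. Meis1, a TALE homeobox gene of the striatal lineage, had 0.133, 54.8 and 840 CPM on chips 185, 193 and 93, against 0, 13.4 and 0 CPM. It was higher on all 3 chips, but almost all of its mean came from chip 93. Zic1 averaged 62.6 ± 108 CPM, against 0.0641 ± 0.111 CPM, and did not pass the filter on low counts.

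**Figure D5:**
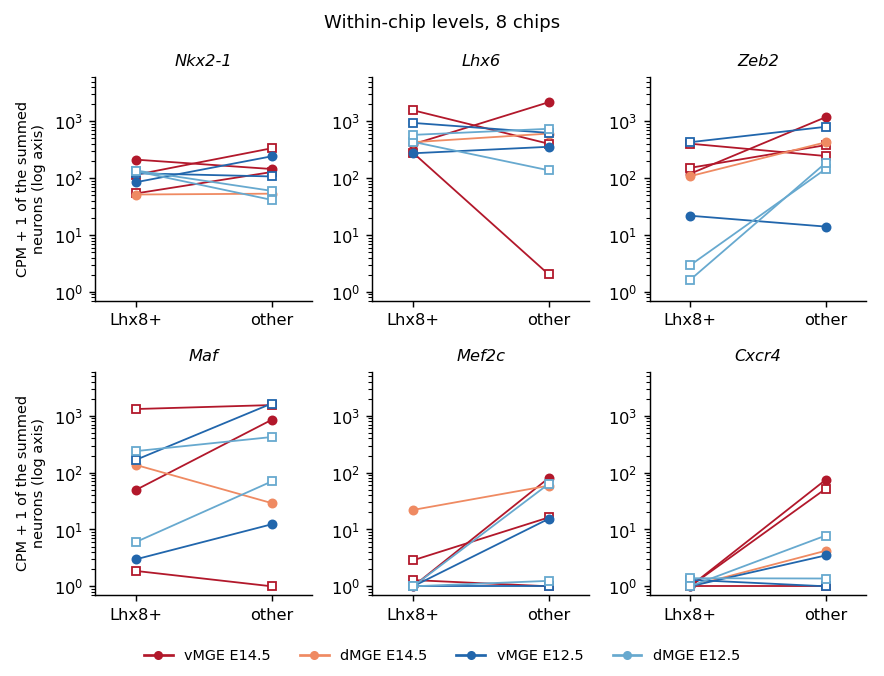
CPM + 1 on a log axis of the summed counts of Lhx8-positive (left) and other (right) neurons of a chip, joined by a line, for 6 genes on the 8 chips with at least 3 cells of each class; filled circles are chips with at least 5 cells of each, open squares the others, and colours mark the group. The lines of a gene cross and run in both directions for Lhx6 and Nkx2-1, and 0 of 5095 genes were called on these chips.

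For a view by list, selection genes and genes not found by name were left out. Of the MGE lineage list, 14 of 20 genes passed the filter on low counts, and 4 had a positive and 10 a negative log2 fold change. Their median was -0.81, against -0.03 over all genes tested, and 0 of the 14 were called. Of the GABAergic list, 11 of 12 genes passed, 3 positive and 8 negative, with a median of -0.34. Of the pan-neuronal list 25 of 28 passed, 8 positive and 17 negative, with a median of -0.20. Of the migration and guidance list 15 of 32 passed, 5 positive and 10 negative, with a median of -0.58. The ion channel and synapse list went the other way, with 10 of 28 passing, 6 positive and 4 negative, and a median of +1.19. Of the radial glia list 10 of 19 passed, 7 positive and 3 negative, with a median of +0.82. In it Vim, an intermediate filament gene, had 297 ± 108 CPM in the Lhx8-positive sums and 63.7 ± 57.7 CPM in the others (SD, n = 3 chips). Vim was higher on 3 of 3 chips (log2 fold change 2.50 ± 1.57 SE, adjusted p = 0.9998 by edgeR). Only 2 of 15 cholinergic and ventral genes, 5 of 14 pallidal genes and 6 of 20 striatal genes passed the filter, with 0 called. Lists unrelated to the lineage moved as far. Dissociation-response genes were negative in 7 of 8 (median -1.42) and neurogenic progenitor genes in 7 of 9 (median -0.82). S-phase genes were positive in 8 of 11 (median +0.99) and neuropeptide and monoamine genes in 3 of 4 (median +1.26), again with 0 called.

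The nearest population is the 93 neurons with Lhx6 but not Lhx8. Against them, on 2 chips with at least 5 cells of each, edgeR's quasi-likelihood test called 0 of 7211 genes (0%) at an adjusted p under 0.05, with 109 (1.51%) at an unadjusted p under 0.05 and 198 (2.75%) called by DESeq2. It also called 0 of 5030 on 7 chips with at least 3 cells of each. On the 2 chips, the MGE lineage list had 7 positive and 5 negative log2 fold changes, with a median of +0.12. The ion channel and synapse list had 6 and 8, with a median of -0.27. Both medians changed sign from the comparison with all other neurons. The GABAergic, pan-neuronal, migration and radial glia lists kept theirs (-0.17, -0.16, -0.47 and +0.26). By detection, Nkx2-1 was found in 27 of the 50 Lhx8-positive neurons, against 34 of the 93. Zic1 was found in 7 of 50, against 1 of 93, and Cxcr4 in 0 of 50, against 12 of 93.

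The complexity of the libraries was compared on the same 3 chips. Median detected genes per cell were 2500, 3558.5 and 2413.5 in the Lhx8-positive neurons of chips 185, 193 and 93, against 2423, 2347.5 and 2436 in the others. The mean difference was 422 ± 685 genes (SD, n = 3 chips; exact permutation p = 0.5 by sign flips, smallest possible 0.25). Over 14 chips it was 217 genes (permutation p = 0.173), and 70.8 genes after thinning to 50000 counts. Its part in the detection shares beyond the thinned values given above was not tested.

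Within the Lhx8-positive neurons, region and age could be compared on 4 chips with at least 5 of them, chips 93 and 194 of vMGE E14.5, 193 of dMGE E14.5 and 185 of vMGE E12.5. No dMGE E12.5 chip qualified, so region and age entered as additive terms. For vMGE against dMGE, edgeR's quasi-likelihood test called 0 of 9232 genes (0%), with 82 (0.888%) at an unadjusted p under 0.05, and DESeq2 called 491 (5.32%). For E14.5 against E12.5, edgeR called 0 of 9232, with 171 (1.85%) at an unadjusted p under 0.05, and DESeq2 called 1122 (12.2%). Each contrast rests on 1 chip on one side. With all chips that held at least 1 Lhx8-positive neuron, edgeR called 1 of 7223 genes (0.0138%) by region, Slc18b1, lower in vMGE. It had 2655 CPM on dMGE chip 97, which held 1 such neuron, 101 and 46.4 CPM on dMGE chips 176 and 193, and 0 on all 9 vMGE chips.

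In the fit by age on 4 chips, 12 of the 13 tested MGE lineage genes had a positive log2 fold change, with a median of 2.25 against 0.38 over all genes, and 0 were called. Of the migration and guidance list 19 of 20 were positive, with a median of 2.11 and 0 called. The E12.5 side of these values is chip 185 alone.

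On 8 chips with at least 3 Lhx8-positive neurons, a choice made after seeing the data, edgeR called 5 of 10434 genes (0.0479%) by age: Ctsb, Aasdhppt and Tmtc3 higher and Kif5c and Vcpip1 lower at E14.5. These 5 are named because they are all the calls, after their values were seen. On all 16 chips with at least 1 Lhx8-positive neuron, edgeR called 0 of 7223 genes by age (572 at an unadjusted p under 0.05), so none of the 5 was called there (Kif5c adjusted p = 0.114). Kif5c, a kinesin of axonal transport, had 0, 11.5, 0 and 164 CPM on E14.5 chips 91, 93, 194 and 193, against 978, 2789, 189 and 749 CPM on E12.5 chips 174, 185, 176 and 184. The ages did not overlap, and the log2 fold change was -6.61 ± 1.55 (SE, adjusted p = 0.0400 by edgeR). On all chips numbered 160 and above with at least 1 such neuron it was -3.43 (adjusted p = 0.738 by edgeR). Without the neurons that held markers of other cell types, Kif5c stayed called (log2 fold change -8.75, adjusted p = 0.00575 by edgeR, 6 chips).

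Ctsb, the lysosomal protease cathepsin B, had 355, 544, 6728 and 304 CPM on E14.5 chips 91, 93, 194 and 193, against 275, 101, 0.388 and 0.629 CPM on E12.5 chips 174, 185, 176 and 184. Chip 194 stood far above the rest and holds 1 neuron with microglial markers. Without the neurons that held markers of other cell types, the log2 fold change of Ctsb was +1.25 ± 1.96 (SE, adjusted p = 0.957 by edgeR, 6 chips). That fit also lost dMGE E12.5 chips 176 and 184, which had the lowest Ctsb levels. The part of the neuron with microglial markers alone was not tested.

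Whether the difference between Lhx8-positive and other neurons itself changed with region or age was tested on the 8 chips with at least 3 cells of each. edgeR called 0 of 5095 genes for either term (0%), with 84 (1.65%) at an unadjusted p under 0.05 for each, and DESeq2 called 219 (4.3%) by region and 222 (4.36%) by age. The smallest p-values belonged to Serpini1, Adamts5, Rbm18, Trim44, Fam102b, Taf3, Hilpda and Slc35b2 for region, and among others to Rlf, Rbm18, Csnk1g2, Stx16, Cbx2 and Arhgap1 for age, all with an adjusted p of at least 0.9998 by edgeR.

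Markers of other cell types were searched in all neurons. Of 35 markers of endothelial, pericyte and fibroblast, microglial and pallial excitatory cells, at least 1 reached 20 CPM in 4 of 50 Lhx8-positive and 9 of 143 other neurons. One of the 4, on vMGE E14.5 chip 194, held 6 of 8 microglial markers, C1qa, C1qb, C1qc, Csf1r, Aif1 and Tyrobp, at up to 4532 CPM, with an Lhx8 level of 55.4 CPM and no Lhx6. The summed microglial list had 0 to 666 CPM over the 4 groups of Lhx8-positive neurons, against 0 to 3.80 CPM in the others, with Cx3cr1 and Ptprc at 0 in the Lhx8-positive neurons. For pallial excitatory cells 10 of 12 markers, Neurod2 and Tbr1 among them, and for endothelial cells 4 of 7 were at 0 in the Lhx8-positive neurons. Without the 13 neurons, edgeR called 0 of 7206 genes between the classes on chips 193 and 93, the 2 chips left with at least 5 cells of each. Chip 194 was in neither this fit nor the one on 3 chips, so these 2 fits cannot show the effect of its microglial-marker cell. On the 6 chips left with at least 3 cells of each, chip 194 among them, edgeR called 0 of 4906. Blood-cell genes reached 20 CPM in 9 of 50 and 26 of 143.

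Genes that followed Lhx8 most closely over the 193 neurons, by Spearman correlation of log2(CPM + 1) among 7551 genes found in at least 10% of them, were Jagn1 (0.351), Akr1e1 (0.343), Znrd1 (0.338), Smim20 (0.333) and Tmeff1 (0.317). These values are a description over cells that share chips and depth, and all are weak. Nkx2-1 stood at 0.260, rank 54, and Lhx6 at 0.0495, rank 3584. Tmeff1, a transmembrane protein, was detected in 26 of 50 Lhx8-positive neurons, against 37 of 143 others.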

How the data were processed

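Single-cell libraries were made with Smart-seq v4 and Nextera per the labels. Per the submitters' processing notes, STAR 2.4.0, HTSeq 0.6.1, CASAVA, FastQC and SAMtools were used with build mm9. The deposited table holds the authors' raw read counts per gene, unnormalized. Gene names came from the table and from a reference by identifier (32620 of 37310 genes); no coordinates were used, since the builds differ. CPM is the count divided by the cell's total and scaled to a common total. Counts were summed per chip and class and tested with edgeR 4.0.16 (TMM, filterByExpr, robust quasi-likelihood, chip block, Benjamini-Hochberg; R 4.3.3). DESeq2 1.42.0 and limma 3.58.1 were alternatives. The selection genes Tubb3, Dcx, Top2a, Mki67 and Lhx8 stayed out of the adjustment. The pipeline was tested on simulated data. Shares per chip were compared by exact permutation, and intervals are exact Clopper-Pearson 95% intervals.

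The cells, lists and tests were chosen with earlier results of these data known. Genes to name were the 10 largest called changes each way at 20 CPM or more, members of the MGE, cholinergic, pallidal and striatal lists at 20 CPM or more, up to 4 members of each other list by adjusted p, 8 genes per class term, and the 5 highest correlations with Lhx8. Genes with detection shares were picked from the same lists with their values seen. The planned mean over both ages and both regions could not be fitted, as no dMGE E12.5 chip held 5 Lhx8-positive neurons, and class terms used chips with at least 3 cells because 5 left no residual degrees of freedom. Chip numbers pair the 2 classes, which come from the same chip. Doublets were not called. Of the 1796 MGE cells, 141 held both Xist and Y-linked counts at 10 CPM, and of the 193 neurons 0 Lhx8-positive and 1 other did. Results for some genes the rule names are not reported here.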

Additional observations from a re-analysis of the deposited data

Results flagged for a closer look

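Of 10 sets of chips checked, 1 value stood apart from the others of its group. The median Lhx8 level of the Lhx8-positive neurons was 1643 CPM on chip 97 of dMGE E14.5, where the other 3 chips of the group with such neurons had 205, 128 and 57.9 CPM. Chip 97 held 1 Lhx8-positive neuron, so this value is 1 cell. Chance flags about 1 in 20 groups.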

How the results depend on the processing

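Other settings added after seeing the data were fits and shares on chips with fewer cells, and cells without markers of other types. The share difference between vMGE and dMGE kept its sign in the settings run, and passed the threshold at E14.5 with at least 1 neuron per chip (28.7 points; 33.7 thinned, 30.3 without cells holding markers of other types; adjusted p 0.0311, 0.0155 and 0.0186 by exact permutation) and at E12.5 thinned with at least 1 neuron (55.6, adjusted exact permutation p = 0.0476). Each of these passing settings was added after the data were seen, and those at E14.5 share chips. They carry the limit of a pattern already known from these cells, and the planned E14.5 test gave an exact permutation p of 0.2. At an Lhx8 threshold of 50 and 100 CPM the E14.5 difference was 12.52 and 10.70 points (exact permutation p = 0.4 and 0.5), against 21.6 at 20 CPM. Leaving out 1 chip in turn gave 14.2 to 32.8 points at E14.5. The age difference reversed in dMGE with Tubb3 and Dcx at 100 CPM (4.05). On chips 160 and above with at least 10 neurons it was 15.5 in dMGE, from 1 chip against 1. With at least 1 neuron on those chips the dMGE difference was -8.50, from 3 chips against 5. Without 1 chip in turn it ran from -9.26 to 4.37. In vMGE the age difference was -33.7 thinned with at least 1 neuron (adjusted exact permutation p = 0.0357). It was 0.833 on chips 160 and above with at least 1 neuron, from 1 chip against 5, and -33.3 to -14.8 without 1 chip. Without the replicate block the class comparison called 0 genes, with 112 at an unadjusted p under 0.05 against 110 with the pairing by chip. DESeq2 called 423 genes between the classes, 198 against Lhx6-only neurons, 491 by region, 1122 by age, and 219 and 222 for the class terms, where edgeR called 0; the cause was not tested. Other counts above 0 by edgeR were 7 without a filter and 6 at an Lhx8 threshold of 100 CPM between the classes, 0 to 2 without 1 chip (Zfp2 and Zfp760 without chip 193), 5 thinned against Lhx6-only neurons, 1 by region with at least 1 cell (Slc18b1) and 2 at 3 cells without other-type cells, and by age 1 without a filter (Kif5c), 5 at 3 cells and 8 without other-type cells. Of 22 named list genes fitted, 9 kept their sign in the planned settings and 13 did not. Not fitted for lack of chips were 10 cells per class, 20 neurons per chip, and, for the smaller fits, chips 160 and above or 1 chip less.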
